A study of Homo sapiens with 15 samples.

Results

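The 48 genes described here were the members of a list of interferon-stimulated genes, chosen with earlier results of these data known. They were taken as the rows of the deposited count table whose Ensembl identifiers carry those symbols. All 48 matched 1 row each of the 58219 genes in the table, and all 48 were among the 17599 genes that passed the filter on low counts. They were measured by poly-A RNA-Seq in BEAS-2B, an established line of human bronchial epithelial cells grown in serum-free medium on collagen-coated plates, so all groups come from 1 line. The 15 libraries formed 5 conditions of 3 independent experiments each. In the single-exposure protocol, cells received medium alone (vehicle control), 1 µg/cm2 or 30 µg/cm2 of PM2.5, a water extract of filters that sampled winter air in Beijing, for 24 h. In the repeated protocol, cells received medium alone or 1 µg/cm2 of PM2.5 daily and were collected on day 7. The methods and the series record differ by 1 in the number of daily treatments. Cells of the repeated protocol were plated at a lower density, were washed daily and came from separate experiments, so in the comparison of both controls the culture time, the density, the washing and the experiment cannot be told apart.

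Interferon-stimulated genes are switched on when type I or type III interferon binds its receptor at the cell surface. Receptor-bound kinases then activate transcription factors that enter the nucleus and bind the interferon-stimulated response element upstream of target genes. Many products restrict viruses directly, by sensing or degrading RNA, blocking translation, trapping virions or altering membranes, and many of these genes are also expressed at a low level with no infection. Airway epithelial cells both release and respond to these interferons.

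The response element was looked for in the 250 bases before each RefSeq gene start, since it is the known binding sequence for the interferon signal. Its core was taken as GAAANNGAAA on either strand, in RefSeq promoter entries of build GRCh38.p14. Entries were found for 40 of the 48 members, and *USP18*, *TRIM22*, *MX2*, *OASL*, *IRF7*, *OAS2*, *IFITM2* and *IFIT2* had none. The core was present before 25 of the 40 members (62.5%), against 3.71% of the 27305 genes with an entry, and 35% of the members held it more than once, against 0.275% of all genes. It stood before 5 of the 6 genes with an entry that were lower after 30 µg/cm2 of PM2.5, before 11 of the 18 with an entry that were higher in the 7-d control (61.1%) and before 14 of the 22 that were not (63.6%). The stretches below, with the core in capitals, are shown for 4 genes that were lower at 30 µg/cm2 (*IFIT1*, *IFI44L*, *IFI44*, *EPSTI1*), for 3 that were higher in the 7-d control without being called at 30 µg/cm2 (*HERC5*, *IFI27*, *IFIT3*) and for *ISG15*, which was called in neither. All are written 5′ to 3′ on the strand of the gene. The RefSeq start can differ from the start of the gene in the count table. The stretches of *IFI44L*, *IFI27* and *ISG15* lie inside the gene spans of that table, and the *IFIT3* stretch crosses the start of its span. A match is a description of letters and not a measured binding site.
IFIT1 (chr10:89392477-89392545, plus strand): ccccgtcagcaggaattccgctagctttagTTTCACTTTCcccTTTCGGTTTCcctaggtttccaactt
IFI44L (chr1:78620254-78620323, plus strand): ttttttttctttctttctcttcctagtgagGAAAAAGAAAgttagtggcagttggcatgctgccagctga
IFI44 (chr1:78649741-78649788, plus strand): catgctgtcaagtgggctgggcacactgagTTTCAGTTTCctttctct
EPSTI1 (chr13:42992272-42992321, minus strand): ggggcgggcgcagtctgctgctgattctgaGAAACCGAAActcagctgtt
HERC5 (chr4:88456964-88457039, plus strand): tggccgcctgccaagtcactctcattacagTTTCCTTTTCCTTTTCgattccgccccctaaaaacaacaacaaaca
IFI27 (chr14:94110598-94110677, plus strand): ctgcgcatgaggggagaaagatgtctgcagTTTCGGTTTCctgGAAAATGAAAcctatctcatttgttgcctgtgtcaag
IFIT3 (chr10:89327811-89327914, plus strand): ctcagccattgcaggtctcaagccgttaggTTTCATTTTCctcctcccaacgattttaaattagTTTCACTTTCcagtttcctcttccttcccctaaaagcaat
ISG15 (chr1:1013354-1013429, plus strand): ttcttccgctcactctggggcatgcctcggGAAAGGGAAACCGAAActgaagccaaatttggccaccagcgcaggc

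In *IFIT1* both cores lie close together, beginning 116 and 103 bases before the start, whereas in *IFI44* the single core begins 18 bases before it. *IFI44L* holds a core at 164 and at 73 bases before its start, of which the outer one is printed, and *HERC5* holds a further core at 74 bases that is not printed. In *HERC5* and *ISG15* the cores overlap. No core was found in the entries of *CMPK2*, *XAF1*, *OAS1* or *HERC6*, which says only that these letters are not in those windows.

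Libraries held between 21460981 and 34724765 counts in genes, and mitochondrial genes took 2.37% to 4.40% of them. Libraries of the same experiment tended to deviate together. Their deviations from the group means correlated at 0.201 to 0.721 in the 24-h protocol, over all tested genes, and weakly, at 0.121 to 0.181, in the 7-d protocol. Libraries of different experiments gave -0.683 to 0.453 and -0.127 to -0.0341, so the ranges overlapped at 24 h. Experiment 2 of the 24-h protocol stood apart: its 3 libraries had mitochondrial shares of 4.40%, 4.17% and 4.13%, against 2.76% to 3.42% in experiments 1 and 3. Among members with at most 4879 exon bases, the median difference of experiment 2 from the other experiments was 0.58 on the log2 scale at 30 µg/cm2 and 0.40 at 1 µg/cm2, and among longer members it was -0.14 and -0.47. In the 24-h control the corresponding medians were 0.16 and 0.08. Counts at 24 h are therefore also given with experiment as a term in the fit (a block) and without that experiment. Some of the members whose calls turn on it are named.

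All 8 epithelial markers examined were above 3 counts in a library of every condition. The plasmacytoid dendritic cell genes *CLEC4C* and *LILRA4* were at 0 in all 15 libraries, and of 7 leukocyte genes *CD14* alone was above 1 CPM in any library. *CD14*, a lipopolysaccharide co-receptor, was at 10.9 to 12.9 CPM in the 24-h control, 14.2 to 23.4 CPM at 1 µg/cm2 and 2.3 to 17.8 CPM at 30 µg/cm2, and the leukocyte list summed to 2.5 to 23.8 CPM over all libraries. All 6 fibroblast markers were above 3 counts in a library of every condition, with sums of 53.2 to 122 CPM, and 4 endothelial markers summed to at most 3.58 CPM. The summed level of the 8 epithelial markers was 3950 to 4390 CPM (read counts scaled to library size) in the 24-h control and 1750 to 2870 CPM at 30 µg/cm2. It was 3480 to 4220 CPM in the 7-d control and 2500 to 2710 CPM after daily exposure. Not every marker followed the sum. At 30 µg/cm2 *KRT5*, *KRT8*, *KRT19* and *CDH1* were lower without overlap, whereas *EPCAM*, *KRT7*, *KRT17* and *KRT18* overlapped their control. After daily exposure *EPCAM* and *KRT17* overlapped their control, and mean *EPCAM* was 87.4 CPM against 80.8 CPM. The part of these shifts in the results below was not tested. In bulk RNA, fewer cells of a kind and less RNA per cell cannot be told apart.

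The 48 members together took 0.266% to 0.291% of all counts in the 24-h control, 0.271% to 0.304% at 1 µg/cm2, 0.222% to 0.254% at 30 µg/cm2, 0.348% to 0.378% in the 7-d control and 0.304% to 0.339% after daily exposure. Their mean log2 CPM was 4.39 ± 0.05 (SD, n = 3) in the 24-h control and 4.31 ± 0.02 at 1 µg/cm2. It was 3.90 ± 0.17 at 30 µg/cm2, 5.30 ± 0.12 in the 7-d control and 5.08 ± 0.20 after daily exposure. Each library at 30 µg/cm2 lay below each 24-h control library, and each 7-d library lay above each 24-h library. Both 7-d conditions overlapped.

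**Figure D1:**
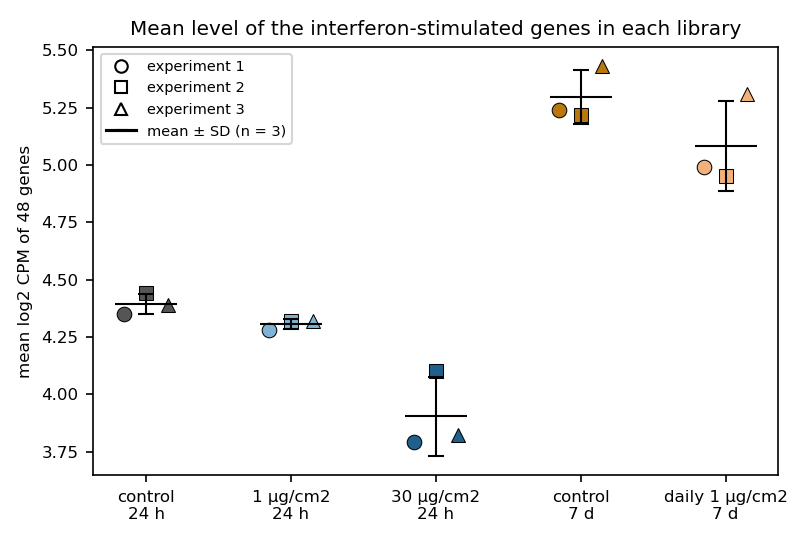
Mean log2 CPM of the 48 genes (y axis) in each of the 15 libraries by condition (x axis), with symbols for the experiment number within each protocol and bars for the mean ± SD of 3 libraries. The 30 µg/cm2 libraries lie at 3.79 to 4.10, the 24-h controls at 4.35 to 4.44 and the 7-d controls at 5.22 to 5.43.

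Levels of the members were compared per length, as RPKM (CPM divided by the exon length in kilobases). In the 24-h control *IFITM3*, a membrane protein that blocks viral entry, was highest at 215 ± 29.9 RPKM (SD, n = 3). *LGALS3BP*, a secreted glycoprotein, followed at 193 ± 16.1 RPKM and *BST2* (tetherin), which holds budding virions at the surface, at 125 ± 32.0 RPKM. The difference between *IFITM3* and *LGALS3BP* was smaller than the SD of *IFITM3*. At the other end, *MX2*, a GTPase active against retroviruses, was at 0.0360 ± 0.00725 RPKM, *XAF1*, a pro-apoptotic factor, at 0.0557 ± 0.0177 RPKM and *RSAD2* (viperin), which makes a chain-terminating ribonucleotide, at 0.224 ± 0.0617 RPKM. These 3 genes with low levels also had the 3 largest fold changes between the controls, described further on.

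**Figure D2:**
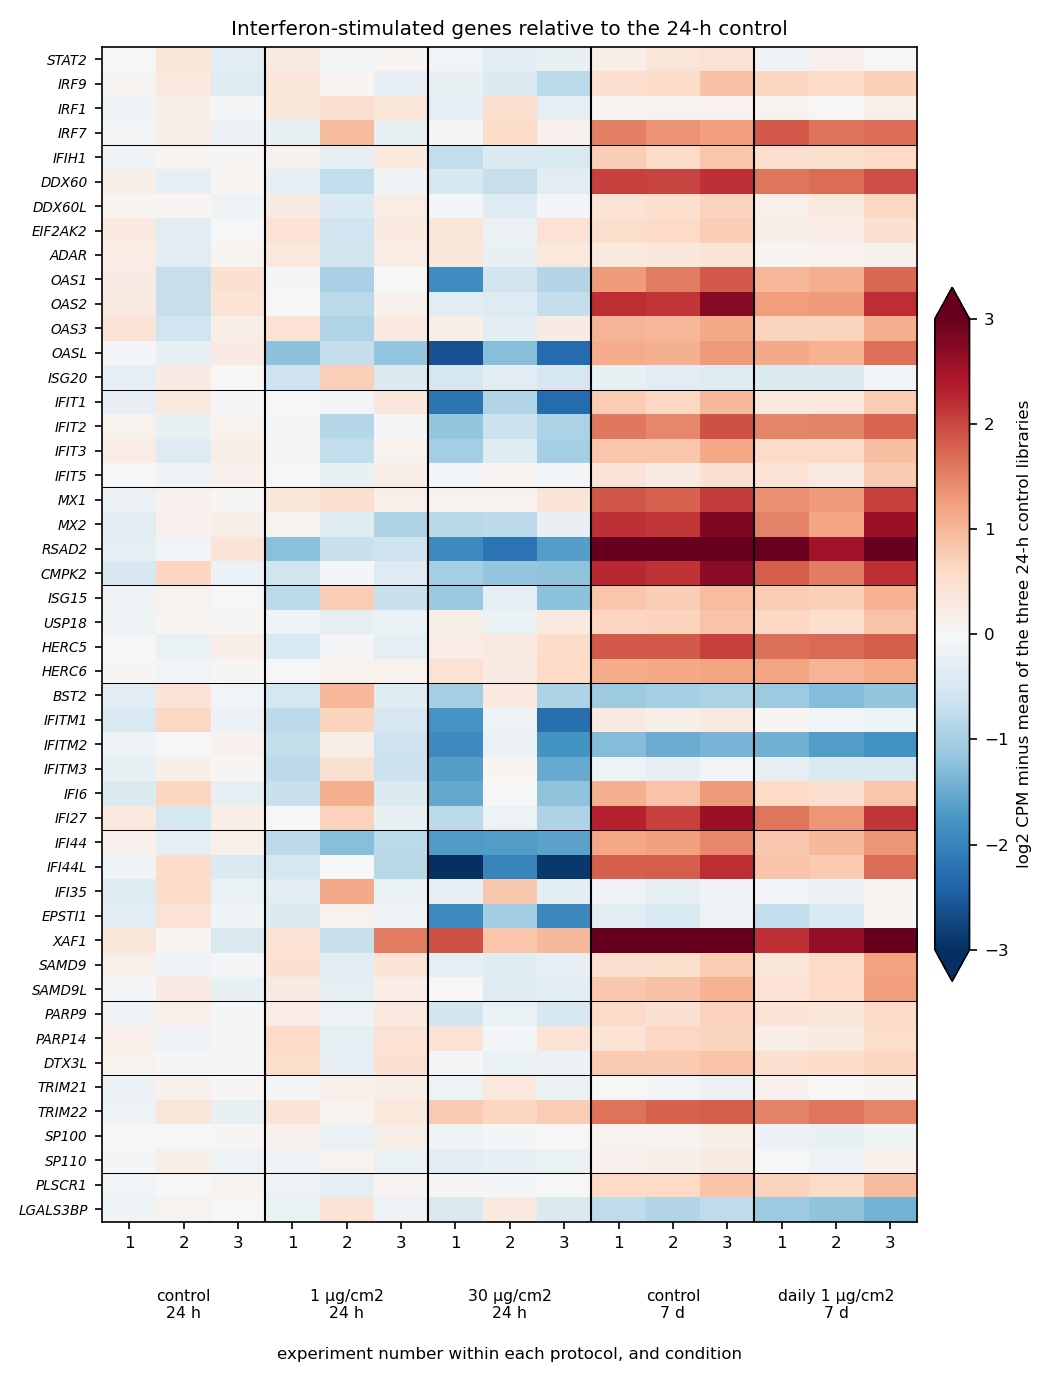
Log2 CPM of each of the 48 genes (rows, grouped by role) in the 15 libraries (columns, by condition and experiment number), minus the mean of the 3 control libraries at 24 h. Blue cells mark lower and red cells higher values, and the colour scale ends at ±3. The 30 µg/cm2 columns are mixed, with the deepest blue in IFI44L, OASL, RSAD2, IFIT1 and IFITM1, and most rows of both 7-d conditions are red.

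The first question was how a single exposure to a high dose affected these genes. After 24 h of 30 µg/cm2, 8 of the 48 members fell and 1, *TRIM22*, rose. The fall was steepest for *IFI44L*, which dropped about 6-fold, and included *RSAD2*, *OASL*, *IFI44*, *IFIT1*, *EPSTI1*, *CMPK2* and *IFIT2*. The transcription factors *STAT2*, *IRF1*, *IRF7* and *IRF9* were not called. A gene was called when edgeR's quasi-likelihood test gave an adjusted p (Benjamini-Hochberg, over all tested genes) under 0.05 and the log2 fold change was at least 0.6 in size. Of all 17599 genes tested, 4.24% were called lower and 3.82% higher. With the experiment as a block, 15 members were lower and 2 higher (7.87% and 7.36% of all genes), and without experiment 2, 16 were lower and 1 higher (9.95% and 9.16% of all genes). The median log2 fold change of the 48 members was -0.36, against 0.03 over all tested genes, with 34 members negative and 12 positive. Libraries of both groups did not overlap for 17 members that were lower and 4 that were higher, against 11.1% and 11.7% of all tested genes. Without experiment 2, 38 members did not overlap in either direction, against 69.4% of all tested genes.

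The genes of the IFI44 family encode cytoplasmic proteins that restrain virus replication, and both lie on chromosome 1, at 78619922 to 78646145 (*IFI44L*) and 78649796 to 78664078 (*IFI44*) in the GRCh38 coordinates of the table. *IFI44L* (ENSG00000137959.15) stood at 15.4, 24.9 and 12.5 CPM in experiments 1, 2 and 3 of the control and at 1.97, 4.23 and 2.20 CPM at 30 µg/cm2. Each exposed library was below each control library, and within each experiment the log2 difference lay between -2.92 and -2.47. Its log2 fold change was -2.64 (SE 0.368), 6.23-fold lower (edgeR quasi-likelihood test, adjusted p = 0.000486). *IFI44* (ENSG00000137965.10) was at 24.1, 18.1 and 24.4 CPM in the control and at 6.77, 6.86 and 7.18 CPM at 30 µg/cm2, so the exposed libraries were close together and all below the control. This gave a log2 fold change of -1.68 (SE 0.179; edgeR quasi-likelihood test, adjusted p = 6.98e-05). *EPSTI1* (chromosome 13, 42886388 to 42992271), an interferon-induced gene first known from epithelial-stromal contact, was at 25.6, 43.0 and 28.8 CPM in the control and at 8.34, 15.4 and 8.28 CPM at 30 µg/cm2. Experiment 2 was the highest of both groups, yet the groups did not overlap, and the log2 fold change was -1.60 (SE 0.282; edgeR quasi-likelihood test, adjusted p = 0.00266). Of the other 4 members grouped with them, *SAMD9*, *SAMD9L* and *IFI35* were not called and *XAF1* was higher in each exposed library (1.54, 0.693 and 0.766 CPM, against 0.481, 0.376 and 0.248 CPM in the control). The *XAF1* change, 1.43 on the log2 scale (SE 0.597), missed the threshold (edgeR quasi-likelihood test, adjusted p = 0.157) passed it with the block (adjusted p = 0.0456) and missed it without experiment 2 (adjusted p = 0.0523). The exons of *XAF1* share 2535 bases with *PRAL* on the other strand, and whether counting used the strand is not given in the sources used here.

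IFIT proteins bind foreign RNA ends and block translation, and all 4 genes lie side by side on chromosome 10. *IFIT1* (89392546 to 89406486) was at 18.4, 26.5 and 21 CPM in the control and at 4.73, 11.6 and 4.31 CPM at 30 µg/cm2. The groups did not overlap, with a log2 fold change of -1.66 (SE 0.311; edgeR quasi-likelihood test, adjusted p = 0.00388). *IFIT2* was at 11.7, 9.18 and 11.8 CPM in the control and at 4.80, 6.83 and 5.55 CPM at 30 µg/cm2, also without overlap, and its log2 fold change was -0.93 (SE 0.220; adjusted p = 0.0155 in the same edgeR test). *IFIT3* was at 24.3, 16.0 and 23.8 CPM in the control and at 10.3, 16.3 and 10.3 CPM at 30 µg/cm2, where experiment 2 overlapped the control. It was not called (log2 fold change -0.79, edgeR adjusted p = 0.0581) and passed with the block (adjusted p = 0.0252). Without experiment 2 *IFIT3* also passed (-1.23, edgeR adjusted p = 2.77e-06). *IFIT5* did not pass. Reads can be shared among these related genes, which the counting could have split.

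*RSAD2* and its neighbour *CMPK2*, a mitochondrial nucleotide kinase, lie head to head on chromosome 2 and overlap by 14 exon bases. *RSAD2* was at 0.842, 0.988 and 1.42 CPM in the control and at 0.230, 0.173 and 0.287 CPM at 30 µg/cm2. All exposed libraries were below all control libraries, although they held few reads, and the log2 fold change was -2.24 (SE 0.373; edgeR quasi-likelihood test, adjusted p = 0.00178). *CMPK2* was at 0.993, 2.26 and 1.24 CPM in the control and at 0.657, 0.589 and 0.574 CPM at 30 µg/cm2. Its log2 fold change of -1.27 (SE 0.331; edgeR quasi-likelihood test, adjusted p = 0.0253) rested in part on control experiment 2, without which it was -0.87 (adjusted p = 0.101), and the call was lost without the whole of experiment 2 (-0.85, adjusted p = 0.0725). *MX1*, whose GTPase product blocks influenza virus and others, differed little, with 8.51, 10.5 and 9.91 CPM in the control and 10.4, 10.4 and 12.7 CPM at 30 µg/cm2.

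Among the sensors and RNA-binding effectors, *OASL*, a relative of the oligoadenylate synthetases that enhances RNA sensing by RIG-I, was the 1 of 10 called. It was at 4.48, 3.91 and 5.49 CPM in the control and at 0.690, 1.84 and 0.861 CPM at 30 µg/cm2, with no overlap. The log2 fold change was -2.02 (SE 0.316; edgeR quasi-likelihood test, adjusted p = 0.00111). *OAS1*, which makes the 2-5A activator of RNase L, was at 5.75, 2.96 and 6.62 CPM in the control and at 1.28, 3.29 and 2.58 CPM at 30 µg/cm2. It was called with the block (log2 fold change -1.06, edgeR adjusted p = 0.0279) and not without it (-1.11, adjusted p = 0.0862). Without experiment 2 *OAS1* was also called lower (-1.75, edgeR adjusted p = 0.000318). *IFIH1* (MDA5), a sensor of long double-stranded RNA, passed the adjusted p in the edgeR test (0.0360) with a log2 fold change of -0.52, short of the size required. *ADAR*, *EIF2AK2* and *OAS3* had log2 fold changes near 0 or above and overlapping groups.

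The small membrane and mitochondrial proteins showed the widest gap between experiments. *IFITM2* was at 136, 147 and 162 CPM in the control and at 39.8, 131 and 42.5 CPM at 30 µg/cm2. *IFITM1* was at 30.2, 63.4 and 36.7 CPM in the control and at 12.0, 37.3 and 8.52 CPM at 30 µg/cm2. In both genes the exposed library of experiment 2 was about 3 times as high as the other exposed libraries or more. None of the 6 members of this group was called, 4 of them were called lower with the block (*IFITM1*, *IFITM2*, *IFITM3* and *IFI6*), and all 6 were called lower without experiment 2. *ISG15*, the ubiquitin-like protein that is attached to newly made proteins, was at 44.1, 52.0 and 47.7 CPM in the control and at 22.2, 38.9 and 20.3 CPM at 30 µg/cm2. It did not pass (log2 fold change -0.82, edgeR adjusted p = 0.158) but was lower in all 9 pairs of libraries and passed with the block (adjusted p = 0.00395). Without experiment 2 *ISG15* also passed (-1.12, edgeR adjusted p = 1.45e-06). The related genes *IFITM1* and *IFITM2* share 351 exon bases, so their counts are less certain.

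Other members went the opposite way. *TRIM22*, a ubiquitin ligase with antiviral activity, was at 26.6, 38.3 and 25.6 CPM in the control and at 50.8, 46.1 and 50.1 CPM at 30 µg/cm2. The groups did not overlap, and the log2 fold change was 0.70 (SE 0.146; edgeR quasi-likelihood test, adjusted p = 0.00757). Its exons share 573 bases with *OR56B1* on the same strand. *HERC6*, a ubiquitin ligase related to *HERC5*, was at 11.9, 11.2 and 12.1 CPM in the control and at 16.0, 13.9 and 18.0 CPM, with a log2 fold change of 0.44 that passed the adjusted p (0.0289, edgeR) but not the size. *HERC5*, the main ligase for ISG15, was higher in all 9 pairs with a log2 fold change of 0.34 and did not pass (edgeR adjusted p = 0.179).

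Of the 9 calls, *IFI44L*, *RSAD2*, *OASL*, *IFI44*, *IFIT1* and *EPSTI1* held whichever library was left out. *CMPK2* was lost without control replicate 2 and without replicate 1 (edgeR adjusted p = 0.0768) or 3 (adjusted p = 0.0938) of 30 µg/cm2. *IFIT2* was lost without replicate 1 (adjusted p = 0.0751) or 3 (adjusted p = 0.0671) of 30 µg/cm2. *TRIM22* had a log2 fold change of 0.58 without control replicate 3, short of the size required. Without replicate 2 of 30 µg/cm2, 16 members were called. The share of all genes called in that fit is not given here, so the rise cannot be read as particular to the members.

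**Figure D3:**
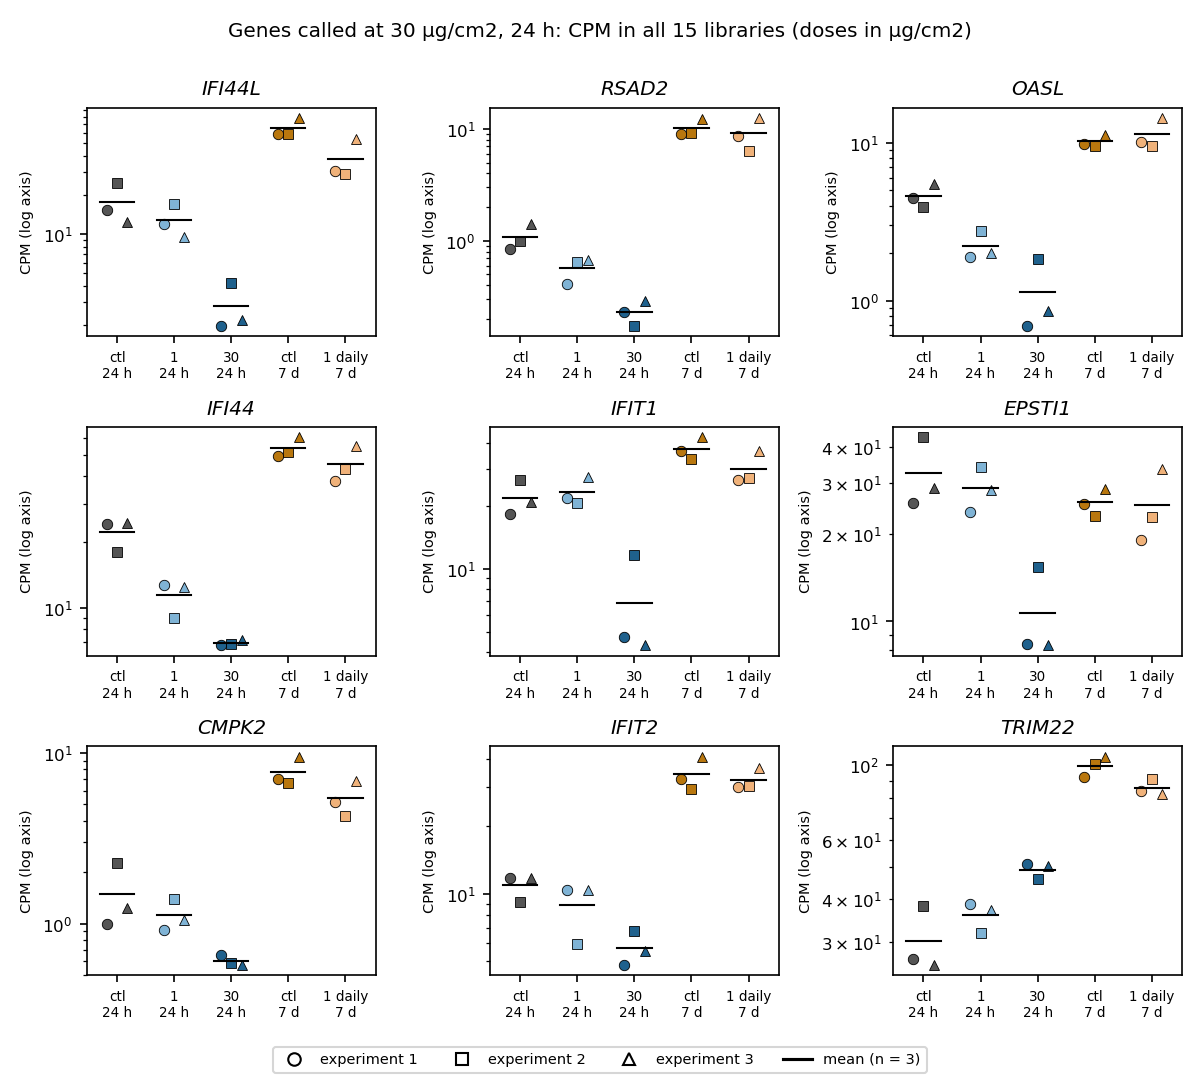
CPM (log axis) of the 9 genes called at 30 µg/cm2 in all 15 libraries, by condition (x axis, doses in µg/cm2), with symbols for the experiment number and lines for the mean of 3 libraries. In 8 genes the 30 µg/cm2 libraries lie below the 24-h controls, and in TRIM22 they lie above. In all but EPSTI1 and IFIT1 the 7-d libraries lie above every 24-h library.

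The next question was whether a low dose had an effect. At 1 µg/cm2 for 24 h, no member was called (0.0455% of all tested genes were called higher and 0.017% lower). At an unadjusted p under 0.05 in the edgeR test, 1 member was higher and 4 were lower. Of all 17599 tested genes, 534 were under it in either direction. The median log2 fold change of the members was 0.04 against 0.01 over all tested genes. With the block, 1 member was called lower (0.17% of all genes), and this was *IFI44*. It was at 12.8, 9.02 and 12.5 CPM at 1 µg/cm2, below each of its control libraries (24.1, 18.1 and 24.4 CPM). Its log2 fold change was -0.95 (SE 0.174; edgeR quasi-likelihood test, adjusted p = 0.0964), and -0.96 with the block (adjusted p = 0.0019). Within experiments 1, 2 and 3 the *IFI44* difference was -0.91, -1.0 and -0.96. *OASL* was at 1.90, 2.77 and 2.0 CPM and *RSAD2* at 0.408, 0.644 and 0.667 CPM, each below its control libraries, with log2 fold changes of -1.07 and -0.92 that did not pass (edgeR adjusted p = 0.937 and 1). Without experiment 2, 5 members were called lower (0.997% of all genes): *OASL*, *IFI44*, *IFITM2*, *IFITM3* and *ISG15*. Libraries did not overlap for 2 members that were higher and 4 that were lower, against 2.32% and 2.13% of all tested genes. Without experiment 2, 35 members did not overlap in either direction, against 45.7% of all tested genes.

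Compared directly, 30 µg/cm2 gave lower levels than 1 µg/cm2 for 4 members (4.22% of all tested genes) and higher levels for 1 (3.62%). *IFI44L* had a log2 fold change of -2.18 (SE 0.365; edgeR quasi-likelihood test, adjusted p = 0.00231). *IFIT1*, at 21.8, 20.6 and 27.4 CPM at 1 µg/cm2, had a log2 fold change of -1.75 (adjusted p = 0.00328), *EPSTI1* of -1.43 (adjusted p = 0.0061) and *IFI44* of -0.72 (adjusted p = 0.0194) in the same edgeR test. *HERC5* was at 6.39, 8.47 and 7.16 CPM at 1 µg/cm2 and at 10.3, 10.6 and 12.9 CPM at 30 µg/cm2, a log2 fold change of 0.62 (edgeR adjusted p = 0.0186). *IFIT1* and *EPSTI1* at 1 µg/cm2 overlapped the control, and *IFI44*, *OASL* and *RSAD2* lay between the control and 30 µg/cm2 without overlap with either. With the block, 13 members were lower and 1 higher (8.58% and 6.97% of all genes), and without experiment 2, 17 were lower and 1 higher (9.97% and 7.38%), with 38 members that did not overlap, against 67.1% of all tested genes. The count was 3 without replicate 3 of either dose, 11 without replicate 2 of 1 µg/cm2 and 18 without replicate 2 of 30 µg/cm2, against 5 with all libraries. Shares of all genes in these fits are not given here. *HERC5* was lost without replicate 1 (edgeR adjusted p = 0.0889) or 3 (0.066) of 1 µg/cm2 and without replicate 3 of 30 µg/cm2 (0.102), and *IFI44* without replicate 1 or 3 of either dose (adjusted p = 0.0594 to 0.066).

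Set against each other, the vehicle controls of both protocols differed more than any exposed group did from its own control in the number of members called. In the 7-d control 25 members were higher and 2 lower than in the 24-h control, against 11.1% and 10.8% of all tested genes. Without 24-h experiment 2 the counts were 29 and 3 (16.1% and 14.9% of all genes), the added members being *IFIT1*, *ISG15*, *IFI6* and *PARP9* among the higher and *BST2* among the lower. The median log2 fold change of the members was 0.76, against 0.02 over all tested genes. Libraries of both controls did not overlap for 36 members that were higher and 3 that were lower, against 27.6% and 24.7% of all tested genes. All 4 genes of the MX and viperin group were called higher, as were 3 of 4 in the ISG15 system, 6 of 10 sensors and effectors, 4 of 7 in the group of *IFI44*, 2 of 4 IFIT genes and 2 of 4 transcription factors. Fewer were higher in other groups: 1 of 3 ADP-ribosylation genes, 1 of 4 TRIM and nuclear body genes and 1 of 6 small membrane and mitochondrial proteins. In that last group 1 was lower, and of *PLSCR1* and *LGALS3BP* 1 was higher and 1 lower.

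*RSAD2* was at 0.842, 0.988 and 1.42 CPM in the 24-h control and at 9.04, 9.09 and 12.2 CPM in the 7-d control, 9.31-fold higher (log2 fold change 3.22, SE 0.298; edgeR quasi-likelihood test, adjusted p = 1.13e-05). *CMPK2* was at 6.99, 6.62 and 9.47 CPM in the 7-d control, 5.21-fold higher, and *MX2* at 2.35, 2.28 and 3.67 CPM, 5.91-fold higher than its 0.361, 0.518 and 0.531 CPM at 24 h. *MX1* was at 35.1, 33.1 and 41.3 CPM, 3.79-fold higher. For all 4 genes every 7-d control library was above every 24-h control library, and replicate 3 was the highest of the 7-d control.

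*XAF1* had the largest fold change of the members, from 0.481, 0.376 and 0.248 CPM to 4.22, 5.52 and 5.83 CPM (13.8-fold, log2 fold change 3.79, SE 0.581; edgeR quasi-likelihood test, adjusted p = 0.000385), with its *PRAL* overlap as above. *IFI44L* was at 58.8, 59.2 and 78.4 CPM in the 7-d control, 3.73-fold higher, and *IFI44* at 49.6, 51.8 and 60.1 CPM, 2.42-fold higher. *EPSTI1*, which was among the genes that fell at 30 µg/cm2, was at 25.4, 23.1 and 28.6 CPM in the 7-d control, within or just below the range of its 24-h control (25.6 to 43.0 CPM), and was not called.

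Among the RNA sensors, *DDX60*, a helicase-like cofactor of RIG-I, went from 40.3, 30.1 and 37.5 CPM to 148, 145 and 164 CPM. The log2 fold change was 2.08 (SE 0.172; edgeR quasi-likelihood test, adjusted p = 6.32e-06), and the groups were far apart. *OAS2* went from 3.46, 1.74 and 3.82 CPM to 13.4, 12.8 and 19.4 CPM, 5.01-fold, *OAS1* was 2.84-fold higher, and *OASL* went from 4.48, 3.91 and 5.49 CPM to 9.91, 9.63 and 11.3 CPM, 2.22-fold. *OAS3* was 1.99-fold higher, but this call was lost without any 1 of control replicates 2 and 3 at 24 h and 1, 2 and 3 at 7 d (edgeR adjusted p = 0.0592 to 0.0963). *ADAR*, *EIF2AK2*, *DDX60L* and *ISG20*, the other effectors, were not called.

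Of the ISG15 system, *HERC5* went from 8.81, 7.62 and 10.2 CPM to 31.5, 31.9 and 36.5 CPM (3.75-fold; edgeR quasi-likelihood test, adjusted p = 6.32e-06), and *HERC6* and *USP18*, the protease that removes ISG15 and dampens receptor signalling, were 2.22-fold and 1.66-fold higher. *ISG15* itself was at 85.2, 79.1 and 90.9 CPM, above each of its 24-h control libraries, and its log2 fold change of 0.83 did not pass (edgeR adjusted p = 0.0835), but was called without 24-h experiment 2 (0.87, adjusted p = 2.12e-06). *IFI27*, a small mitochondrial protein widely used as a marker of interferon exposure, went from 2.86, 1.55 and 2.62 CPM to 11.5, 9.63 and 13.9 CPM, 4.94-fold. *TRIM22* was at 92.6, 101 and 106 CPM, 3.31-fold higher, and *IRF7*, the factor that amplifies interferon production, at 23.9, 21.3 and 19.8 CPM, 2.57-fold higher than its 8.18, 9.69 and 7.47 CPM.

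Not all members were higher. *IFITM2* went from 136, 147 and 162 CPM to 60.5, 52.6 and 56.4 CPM, a log2 fold change of -1.39 (edgeR quasi-likelihood test, adjusted p = 0.013), and the call was lost without 7-d control replicate 2 (adjusted p = 0.0527). *LGALS3BP* went from 631, 746 and 694 CPM to 408, 373 and 403 CPM, a log2 fold change of -0.81 (adjusted p = 0.00981 in the same edgeR test). *BST2* was at 65.3, 66.9 and 70.9 CPM, below each 24-h control library (111, 180 and 129 CPM), and did not pass (log2 fold change -1.05, edgeR adjusted p = 0.06), but was called lower without 24-h experiment 2 (-0.84, adjusted p = 5.78e-07). These 3 were among the members with the highest RPKM in the 24-h control. Other calls that depended on 1 library were *IRF9* (1.56-fold higher), lost without replicate 1 or 3 at 24 h or any 1 replicate at 7 d (edgeR adjusted p = 0.0651 to 0.213), *IFIT3* (1.90-fold higher) and *PLSCR1* (1.61-fold higher), lost without 7-d control replicate 3 (*IFIT3* adjusted p = 0.0535, *PLSCR1* log2 fold change 0.59), and *SAMD9L* (1.88-fold higher), lost without 24-h control replicate 3 (adjusted p = 0.0529). *IRF9* shares 1838 exon bases with another gene on the same strand.

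**Figure D4:**
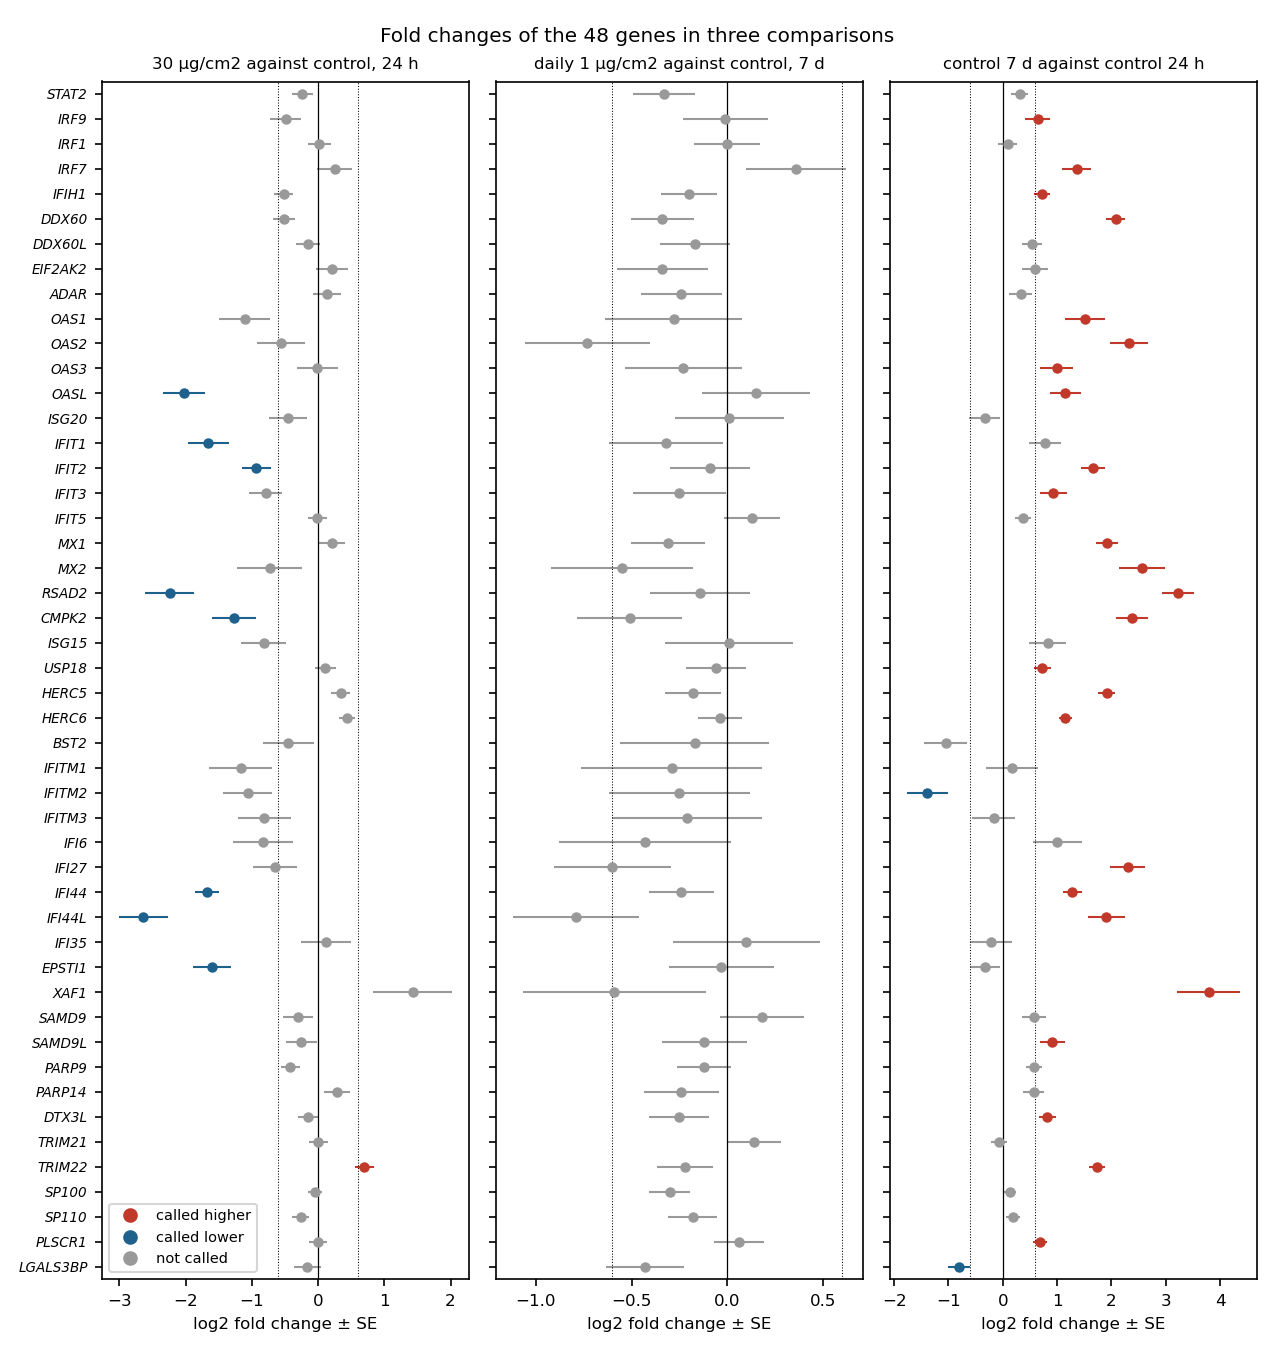
Log2 fold change ± SE (x axes, each with its own range) of the 48 genes (rows, by role) in 3 comparisons, with calls higher in red, calls lower in blue and no call in grey, and dotted lines at ±0.6. At 30 µg/cm2 8 genes are called lower and 1 higher, after daily exposure none is called, and between the controls 25 are called higher and 2 lower.

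Repeated exposure was compared with the vehicle control of the same protocol. After daily 1 µg/cm2 no member was called (0.102% of all tested genes were called higher and 0.125% lower). At an unadjusted p under 0.05 in the edgeR test, 3 members were lower and 0 higher. Of all 17599 tested genes, 2102 were under it in either direction. When only both 7-d groups were fitted, 1 member was called. The share of all genes called in that fit is not given here, so this count cannot be set against all genes. The median log2 fold change was -0.22, against 0.01 over all tested genes, with 38 members negative and 9 positive. Libraries did not overlap for 13 members that were lower, against 21.6% of all tested genes, and for 2 that were higher, against 21.3%. Within experiments, 31 members were lower after daily exposure in all 3 experiments and 3 were higher in all 3, against 30.8% and 30.5% of all tested genes. Without 24-h experiment 2, which enters the shared estimate of spread, *IFI44L*, *OAS2* and *IFI27* were called lower (3.4% of all genes). With the block, 2 members were called lower (2.79% of all genes). *IFI44L* was at 30.4, 29.2 and 53.8 CPM after daily exposure, below each of its control libraries (58.8, 59.2 and 78.4 CPM), with a log2 fold change of -0.79 (SE 0.330; edgeR quasi-likelihood test, adjusted p = 0.359, and 0.0027 with the block). *OAS2* was at 6.83, 7.04 and 13.6 CPM, against 13.4, 12.8 and 19.4 CPM in the control, a log2 fold change of -0.73 (adjusted p = 0.398, and 0.0198 with the block). Here replicate 3 of the exposed group overlapped the control, and replicate 3 was the highest of both groups. The genes that had fallen at 30 µg/cm2 for 24 h were not uniformly lower: *OASL* was at 10.2, 9.55 and 14.4 CPM against 9.91, 9.63 and 11.3 CPM, and *RSAD2* at 8.68, 6.38 and 12.5 CPM against 9.04, 9.09 and 12.2 CPM, both with overlap.

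The response to daily 1 µg/cm2 over 7 d was also set against the responses at 24 h, each relative to its own control. Against the response to a single 1 µg/cm2, no member was called in either direction, as for all 17599 tested genes (0% higher and 0% lower). At an unadjusted p under 0.05 in the edgeR test, 2 members were higher and 4 lower, against 1245 of all tested genes in either direction. With the block, 1 member was called higher (0.347% of all genes), *IFI44* (0.70 on the log2 scale, edgeR adjusted p = 0.0475). Without 24-h experiment 2, *OASL*, *ISG15* and *IFI44* were called higher and 5 members lower (4.11% and 5.73% of all genes), which were *STAT2*, *IFIT1*, *PARP14*, *DTX3L* and *TRIM22*. Against the response to a single 30 µg/cm2, where the dose and the time both differ, 3 members had a higher and 1 a lower response (0.841% and 0.977% of all genes). These were *OASL*, *RSAD2* and *IFI44*, whose differences were 2.17, 2.10 and 1.44 on the log2 scale, and *TRIM22* at -0.92. With the block 10 members were called higher and 2 lower (6.79% and 7.82% of all genes), and without 24-h experiment 2, 15 and 2 (11% and 10.6%). The count of 4 was down to 1 without replicate 3 of the 24-h control, of 30 µg/cm2 or of daily exposure, or without any 1 replicate of the 7-d control. It was 2 without replicate 1 of 30 µg/cm2 or of daily exposure and 9 without replicate 2 of 30 µg/cm2. Shares of all genes in these fits are not given here.

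Genes that act upstream of the members, or beside them, were followed in 6 lists of 93 genes in all, of which 76 passed the low-count filter. Interferon genes themselves were barely detected. Only *IFNE*, an epithelial type I interferon, passed the filter among 11 ligands, and it was lower in the 7-d than in the 24-h control (log2 fold change -1.73, SE 0.331; edgeR quasi-likelihood test, adjusted p = 0.0017). *IFNB1* had 0, 0 and 0 reads in the 24-h control, 0, 3 and 0 at 1 µg/cm2 and 0, 2 and 0 at 30 µg/cm2. It had 0, 5 and 2 reads in the 7-d control and 9, 5 and 6 after daily exposure. *IFNL1* went the other way, with 3, 2 and 3 reads in the 7-d control and 0, 0 and 1 after daily exposure. These counts were too few to test, and a count of 0 allows up to 3 reads.

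The receptors and their kinases were expressed in every condition. *IFNAR1* was at 81.9, 74.1 and 84.0 CPM in the 24-h control, 78.7, 73.9 and 84.6 CPM at 30 µg/cm2 and 70.8, 76.0 and 72.9 CPM in the 7-d control. Of the 9 genes in this list, none was called at 30 µg/cm2 (3.82% of all tested genes were called higher and 4.24% lower). Between the controls, where 11.1% of all tested genes were called higher and 10.8% lower, 1 of the 9 was called. This was *IFNLR1*, the specific chain of the type III receptor, at 8.97, 8.09 and 9.07 CPM in the 24-h control and 17.5, 18.0 and 14.9 CPM in the 7-d control (log2 fold change 0.95; edgeR quasi-likelihood test, adjusted p = 0.00447).

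Among the other transcription factors, *IRF5* was higher in both comparisons, by 1.22 at 30 µg/cm2 and by 1.55 between the controls on the log2 scale (edgeR quasi-likelihood test, adjusted p = 0.000967 and 6.81e-05). Of 14 sensors and adaptors tested, *CGAS*, the DNA sensor, was called higher at 30 µg/cm2 (log2 fold change 0.62). Between the controls *RIGI* (0.70), *DHX58* (0.89) and *TLR3* (0.66) were higher, and *TLR4* (-2.74) and *IKBKE* (-1.05) lower. Of all tested genes, 3.82% were called higher at 30 µg/cm2, and 11.1% higher and 10.8% lower between the controls. The *TLR4* change rested on experiments 1 and 3 of the 24-h control. It was at 147, 14.8 and 125 CPM there and at 13.2, 14.1 and 15.7 CPM in the 7-d control, so the groups overlapped. Of *SOCS1*, *SOCS3*, *PIAS1*, *PIAS4*, *PTPN6* and *PTPN11*, which dampen the signal, and *UBA7* and *UBE2L6*, which attach ISG15, none was called in either comparison. Without experiment 2, *SOCS3* was lower at 30 µg/cm2 (log2 fold change -0.87) and *UBA7* higher in the 7-d control (0.75).

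Of 36 other interferon-induced genes tested, 3 were higher and 2 lower at 30 µg/cm2 (3.82% and 4.24% of all tested genes). *GBP1*, a guanylate-binding GTPase, was lower (log2 fold change -0.80), as was *SAMHD1*, which depletes nucleotides (-0.73). *SLFN5*, *WARS1*, the tryptophanyl-tRNA synthetase, and *LAMP3* were higher, by 1.54, 1.34 and 0.92. *SLFN5* was at 38.5, 20.8 and 28.2 CPM in the control and at 112, 36.3 and 107 CPM at 30 µg/cm2, so its groups overlapped. Of the 76 genes that passed the filter, 5 were higher and 2 lower at 30 µg/cm2 (3.82% and 4.24% of all tested genes). In the 7-d control 12 were higher and 4 lower (11.1% and 10.8%), and none was called after daily exposure or at 1 µg/cm2. With the block, 7 were higher and 4 lower at 30 µg/cm2 (7.36% and 7.87%) and 4 were lower after daily exposure (2.79%). Without 24-h experiment 2, 7 were higher and 7 lower at 30 µg/cm2 (9.16% and 9.95%). Their median log2 fold change between the controls was 0.13, against 0.76 for the 48 members.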

How the data were processed

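RNA-Seq was performed by the authors on BEAS-2B cells in 15 libraries (5 conditions, 3 experiments each, single-end reads of 50 bases, poly-A selection). Per the methods, reads were aligned with STAR to GRCh38 and counted with featureCounts; the processing notes name hg19, and of the 57392 deposited gene IDs also in GENCODE v44, 54658 start within 1 kb of their GRCh38 start. Annotation, strand setting and options are not given in the sources used here. The deposited values are raw read counts per gene with each gene's exon length, one column per library, not pooled.

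The counts went into edgeR 4.0.16 (R 4.3.3): filterByExpr by condition, TMM scaling, and the quasi-likelihood test (glmQLFit in legacy mode, glmQLFTest) with 1 mean per condition over all 15 libraries. SE was taken as the log2 fold change over the root of its F statistic. Calls needed a Benjamini-Hochberg adjusted p under 0.05 over 17599 genes and a log2 fold change of 0.6 or more in size. CPM and RPKM used TMM-scaled totals, and log2 CPM a prior count of 2. The fit was also run on simulated counts drawn without an effect of the experiment. That run does not cover libraries of the same experiment deviating together, as they did at 24 h. Depth was 21460981 to 34724765 counts, and counting error is one part of the spread only.

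The record states that the last number of a sample marks its experimental batch, so the numbers pair libraries within a protocol. Deviations of same-numbered libraries correlated at 0.201 to 0.721 (24 h) and 0.121 to 0.181 (7 d), against -0.683 to 0.453 and -0.127 to -0.0341 for different numbers. Across protocols, same-numbered libraries correlated at -0.267 to 0.16. The block therefore numbered the experiments of each protocol separately.

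Alternatives were RLE and upper-quartile scaling, no filter, at least 1 CPM in 3 libraries, the block, DESeq2 1.42.0, edgeR's current mode, a likelihood ratio test, only the groups compared, no size threshold, a term for the series of sample numbers in the labels (controls), each library left out, and 24-h experiment 2 left out. All 48 members may be named, members called in a comparison are given with their library values or fold, and others by list. The members and the gene lists were chosen with earlier results of these data known. Promoter sequences came from RefSeq (GRCh38.p14). Some genes of the lists are counted but not reported singly here.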

Additional observations from a re-analysis of the deposited data

Results flagged for a closer look

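The response to daily 1 µg/cm2 over 7 d differed from the response to 30 µg/cm2 over 24 h in 4 members, by a test of the difference itself (edgeR quasi-likelihood test, Benjamini-Hochberg adjusted). For *OASL* the difference was 2.17 on the log2 scale (adjusted p = 0.0183), from responses of 0.15 after daily exposure and -2.02 at 30 µg/cm2. For *RSAD2* it was 2.10 (adjusted p = 0.0331), from -0.14 and -2.24. For *IFI44* it was 1.44 (adjusted p = 0.00936), from -0.24 and -1.68. For *TRIM22* it was -0.92 (adjusted p = 0.0368), from -0.22 and 0.70. Dose, number of exposures, culture time and plating density differ between these arms and cannot be told apart.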

How the results depend on the processing

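Of 45 calls of single members over all comparisons, 26 held under every alternative run. In all, 698 of 771 values beside them kept the call, 73 lost it and 0 reversed. At 30 µg/cm2 the count of 9 members became 14 with no filter, 17 with the block, 4 with only the groups compared and 17 without 24-h experiment 2 (7 to 16 with each library left out). Shares over all genes moved too. Called lower were 4.24% with all libraries and no block, 7.87% with the block and 9.95% without experiment 2. Called higher were 3.82%, 7.36% and 9.16%. For the remaining settings such shares are not given here, so their shifts cannot be set against all genes. At 1 µg/cm2 the count of 0 became 1 with no filter, with the block, with DESeq2 and with the likelihood ratio test, and 5 without experiment 2 (0 to 1). For 30 against 1 µg/cm2 the count of 5 became 14 with the block, 9 with DESeq2, 0 with only the groups compared and 18 without experiment 2 (3 to 18). After daily exposure 0 became 2 with the block, 1 with only the groups compared and 3 without 24-h experiment 2 (0 to 0). For the response to daily against single 1 µg/cm2, 0 became 1 with the block and 8 without experiment 2 (0 to 0). Without experiment 2, 4.11% of all genes were called higher and 5.73% lower in this comparison. For daily 1 against single 30 µg/cm2, 4 became 7 with no filter or DESeq2, 12 with the block and 17 without experiment 2 (1 to 9). Between the controls the count of 27 stayed within 23 to 27 with each library left out, and rose to 32 with numbers 1 to 3 taken as a replicate block shared by the protocols, though they mark separate experiments there. Members without overlap numbered 38 at 30 µg/cm2, 35 at 1 µg/cm2 and 38 between doses without experiment 2. Of all tested genes 69.4%, 45.7% and 67.1% did not overlap there, where 4 pairs of libraries rather than 9 had to agree. The cause of the other shifts was not tested. Each arm had 3 libraries, and *RSAD2*, *MX2*, *XAF1* and *CMPK2* had few reads at 24 h, which limits their precision.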

Other observations

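In exposed cells of the 24-h protocol, members with short exons were more often higher in experiment 2 than members with long exons. At 30 µg/cm2, 18 of 24 members with at most 4879 exon bases were higher in experiment 2 than the mean of experiments 1 and 3, against 8 of 24 longer members. At 1 µg/cm2 the counts were 15 and 8 of 24, and in the control 14 and 13 of 24. *BST2* (1119 bases) was higher there by 1.45 on the log2 scale at 1 µg/cm2, by 1.27 at 30 µg/cm2 and by 0.59 in the control. *OAS3* (8251 bases) differed by -1.26, -0.56 and -0.88 in the same groups. The pattern was noticed in the data and was not tested.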
